A study of Mus musculus with 3 samples.

Results

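The comparison is between C2C12-DF, parental C2C12 cells kept for 2 days in differentiation medium with 2% horse serum, and C2C12-PR, the same cells that spent 2 days in the medium for proliferation, where 10% fetal bovine serum is present. C2C12 is a myoblast line of the C3H mouse that leaves the cell cycle and forms myotubes when serum is lowered. These are 2 of the 3 arrays of the study, chosen by their labels, and the third array, C2C12-W4-08, came from a single transfected line selected in blasticidin that expresses Wnt4 from a CMV promoter and was kept in the proliferation medium. Each array is 1 RNA sample, taken with the miRNeasy kit by the labels and with Isogen by the study's methods. Amplified RNA carried a single dye, so that each array gave a brightness at 23473 probes. From each spot the mean brightness of 1750 blank spots was subtracted, and scaling set the median ratio to 1 over the probes detected on both arrays, with the median detected probe of C2C12-PR at 25. The resulting number is called the signal, and the log2 ratio is that of C2C12-DF over C2C12-PR. Of 18355 gene names on the array, 12911 were above the blank mean plus 2 SD on both arrays and were compared, each by its brightest probe. There are no replicates, which limits the precision and leaves no room for a test, and a difference of 2-fold or more serves only to mark size.

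Myoblasts grown in rich serum receive mitogens and insulin-like and other growth signals that keep ribosome production, nutrient uptake and DNA synthesis going. When serum is lowered, myoblasts leave the cycle, switch on muscle genes and fuse, and their metabolism and secreted proteins change along with the contractile apparatus. The contractile and cell cycle genes of this switch are well known and were set apart, so that the other genes are described here. The arrays fit their labels, as the myogenic factor Myog had a signal of 961 in C2C12-DF and 46.5 in C2C12-PR, and the skeletal actin gene Acta1 had 6099 and 131. The myoblast genes Myod1, Des and Cdh15 were detected on both arrays. Serum was changed in kind as well as in amount between the media, and the effects of the serum, of the halt in division and of muscle differentiation cannot be told apart. In bulk RNA, fewer cells of a kind and less RNA per cell cannot be told apart either.

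Both arrays detected 15918 probes, of which 781 (4.91%) were higher in C2C12-DF by 2-fold or more and 722 (4.54%) were lower by 2-fold or more. Higher probes therefore made up 52.0% of those past 2-fold. In the deposited table with each array at its own median this share was 73.0%, because the median log2 ratio of all compared probes was 0.15 there, and every ratio below is relative to the median probe. On C2C12-DF 74.4% of probes were detected and on C2C12-PR 71.8%, with 1 saturated spot each. Repeated spots of positive controls gave an SD of the log2 signal on each array. Combined as if the arrays were independent, these SDs came to between 0.171 and 0.493 for the log2 ratio. Of 111 genes with more than 1 detected probe 11 had probes that differed by over 1 on the log2 scale. Counted as genes, the background was 5% higher and 4.93% lower among all 12911 compared. The counts of each list below are to be read beside these shares. Lists of 421 muscle and cell cycle genes held 367 compared genes, of which 19.6% were 2-fold higher and 29.4% were 2-fold lower. Outside them remained 12544 genes, with 574 (4.58%) higher by 2-fold or more and 528 (4.21%) lower. Most genes past 2-fold between these media thus belonged to neither list, although their share was smaller. Of 194 genes past 2-fold named here, 76 were past it under each of 12 other ways of processing that gave a value, and the others came within 2-fold under 1 or more.

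Bright genes moved less often than dim ones. Among the 353 genes outside the lists with a mean signal of at least 1000, 12 were 2-fold higher (3.4%) and 9 were 2-fold lower (2.55%). Between 100 and 1000 the shares were 3.66% higher and 3.13% lower, between 20 and 100 they were 4.69% and 3.89%, and among the dimmest genes, under 20, they were 5.07% and 5.21%. The bright genes lay a little above the median probe, with a median log2 ratio of 0.21, against 0.02 for signals of 100 to 1000 and -0.04 for the dimmest. None of the 20 brightest named genes passed 2-fold, and their log2 ratios ran from -0.28 to 0.63. Eef1a1, a translation elongation factor, was the brightest, at 27186 in C2C12-DF and 26959 in C2C12-PR. Also in this range were the ribosomal protein gene Rpl41 (0.26), the prolyl isomerase Ppia (0.15), non-muscle actin Actb (-0.28), the chaperone Hspa8 (-0.14), the polyubiquitin Ubb (0.45), vimentin, Vim (-0.23), and thymosin, Tmsb4x (0.30). The largest of these ratios belonged to the ferritin heavy chain Fth1, at 12181 in C2C12-DF and 7884 in C2C12-PR.

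**Figure D1:**
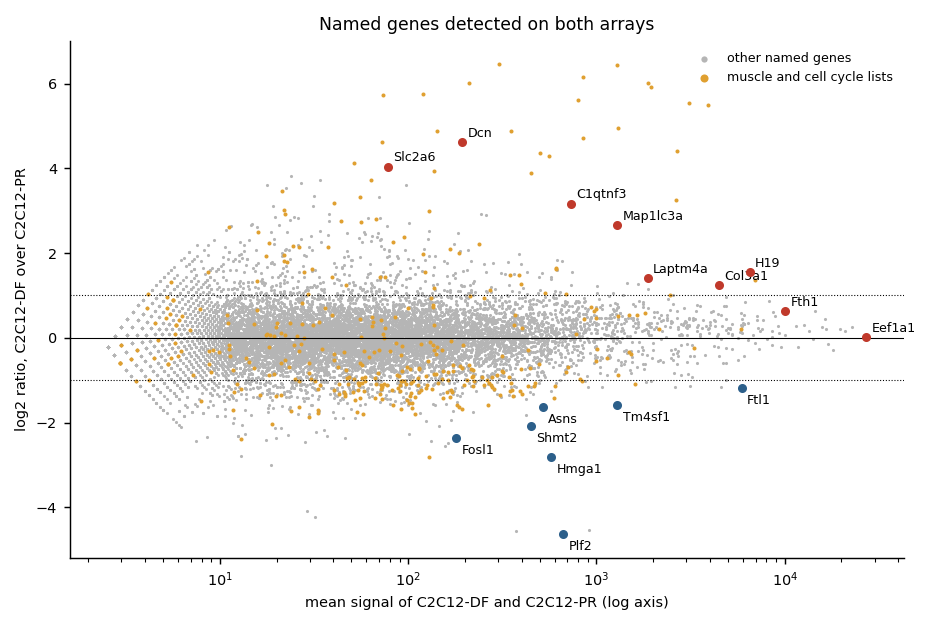
Log2 ratio of C2C12-DF over C2C12-PR (vertical) against the mean signal of both arrays (horizontal, log axis) for every named gene detected on both, with the muscle and cell cycle lists in orange and dotted lines at 2-fold. Genes named in the text are marked, and the brightest, Eef1a1, lies at 0.01 while Ftl1 lies at -1.18 and H19 at 1.55.

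The very bright genes past 2-fold were few enough to name. Among the higher ones were the untranslated growth-control RNA H19 (9710.4 in C2C12-DF, 3306 in C2C12-PR), the collagen chain Col3a1 (6293 and 2664), and the actin-binding calponin Cnn3 (3398 and 1677). The lysosomal membrane protein gene Laptm4a stood at 2722 and 1022, the autophagy protein gene Map1lc3a at 2229.8 and 353, the initiation factor gene Eif4a2 at 2583 and 1170.2, and the tubulin gene Tubb6 at 2351 and 982. Also higher were the proteoglycan Bgn, the protease inhibitor Cst3 (1.01), the tetraspanin Cd82 (1.23), the calcification inhibitor Mgp (1.07) and the ubiquitin ligase subunit Rnf7 (1.05). The lower ones were the ferritin light chain Ftl1 (3626 in C2C12-DF, 8209.5 in C2C12-PR), the glycolytic enzyme Pgam1 (2814 and 6324), the poly(A)-binding protein Pabpc1 (3248 and 6519.8), and the secreted phosphoprotein osteopontin, Spp1 (1974 and 4334). The nuclear transport GTPase Ran stood at 1617 and 3606, the 14-3-3 gene Ywhae at 1302 and 2619, the mitochondrial chaperone Hspd1 at 1198 and 2481, the membrane protein gene Tm4sf1 at 647 and 1929.6, and the serine synthesis enzyme Psat1 at 657 and 1472. These genes have varied functions on both sides. Of them Cd82, Mgp, Rnf7 and Ywhae fall outside the rule for naming genes and were chosen after their values were seen. Where each spot's own local background was subtracted in place of the blank mean, Col3a1 came to 0.53, Cnn3 to 0.75 and Cst3 to 0.87, all under 2-fold, and Pabpc1 came to -0.20.

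Among the 3326 genes outside the lists with a signal of at least 100 on 1 array, 160 were 2-fold higher and 120 were 2-fold lower. The largest ratio was that of Dcn, the collagen-binding proteoglycan decorin, at 373 in C2C12-DF and 15.1 in C2C12-PR. Next came Slc2a6, a sugar transporter of the glucose transporter family, at 147 and 8.91, and Apobec2, a muscle member of the cytidine deaminase family, at 179.6 and 14.7. C1qtnf3, a secreted relative of adiponectin, was the brightest of the 30 largest ratios after Map1lc3a, at 1312 in C2C12-DF and 146 in C2C12-PR. Several others are known from muscle although they are no part of the contractile apparatus. The array's Ptpla, now Hacd1, a fatty acid elongation enzyme needed for myoblast fusion, had 456 in C2C12-DF and 60.9 in C2C12-PR. Lrp4, the agrin receptor of the neuromuscular junction, had 124 and 17.6. Tmem38a, an ion channel of the sarcoplasmic reticulum, had 100.1 and 18.4, and Cacnb1, the calcium channel subunit of skeletal muscle, had 117 and 25.8. The array's 2310015B20Rik, now Mrln, the calcium pump inhibitor myoregulin, had 197 and 46.0.

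Other genes with the largest ratios encode secreted proteins. Ptn, the heparin-binding growth factor pleiotrophin, had a signal of 107 in C2C12-DF and 15.1 in C2C12-PR. Nid2, the basement membrane protein nidogen 2, had 313 and 56.4. Spon2, a matrix protein with a role in innate immunity, had 114 and 22.1, and Cp, the iron-oxidizing plasma protein ceruloplasmin, had 106 and 21.7. All of these lay under 60 in C2C12-PR. Genes of other kinds were the inflammatory caspase Casp4 (log2 ratio 2.46), the Rab5 regulator Rin2 (2.64), the collectin receptor Colec12 (2.40), the RNA decay factor Zfp36l1 (2.31), the death-associated kinase Dapk2 (2.22), the Notch regulator Dtx4 (2.08), Ypel3, which is linked to growth arrest (2.05), and the core histone gene Hist2h2aa1 (2.09). Pdgfrl had a log2 ratio of 2.10 by its brighter probe and 0.07 by a dim one, so that its probes disagree. The plot of the largest and smallest ratios shows these genes at their signals on both arrays. With normexp and local background, Cxcl12 (0.50), Dtx4 (0.96) and 2310015B20Rik (0.73) were under 2-fold.

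**Figure D2:**
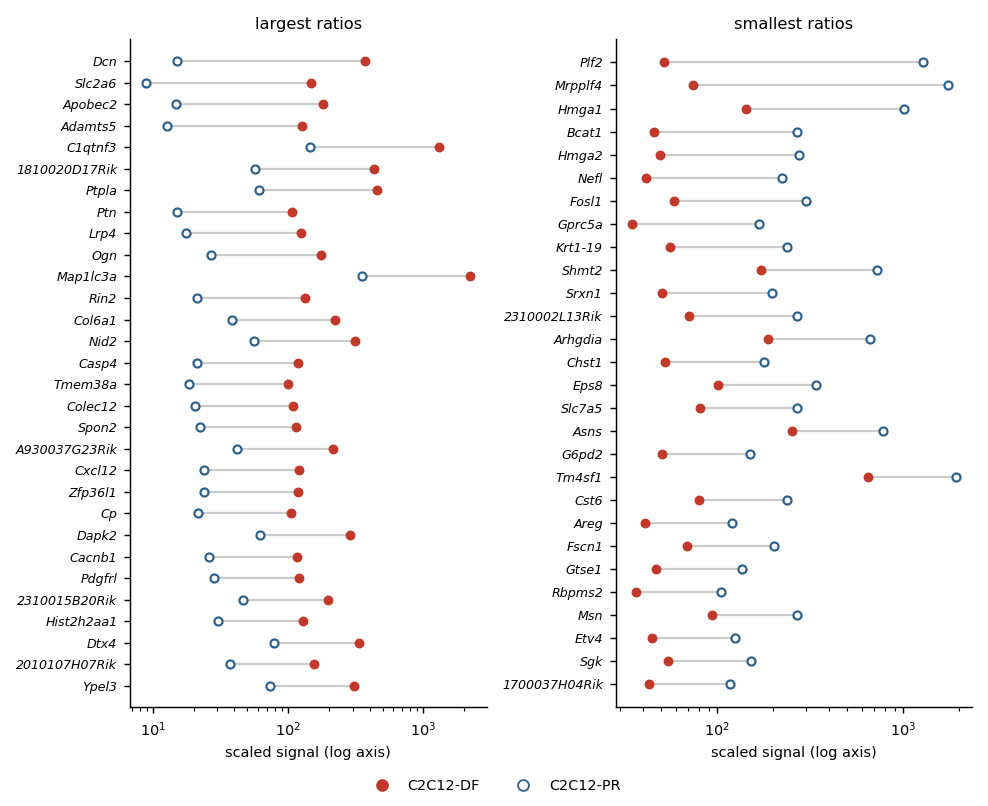
Signal in C2C12-DF (filled) and C2C12-PR (open) on a log axis for the genes reported here among the 30 with the largest and the 30 with the smallest ratio, outside the muscle and cell cycle lists, where 1 array reached 100. The panels begin with Dcn at 373 and 15.1, and with Plf2 at 51.7 and 1283.

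The smallest ratios fell into a few kinds of gene. The placental hormone genes Plf2 and Mrpplf4 of the proliferin family came first, with Plf2 at 51.7 in C2C12-DF and 1283 in C2C12-PR. These are near-identical copies whose probes may pick up each other's RNA. The high mobility group genes Hmga1 and Hmga2, which encode DNA-bending proteins abundant in embryonic and growing cells, followed: Hmga1 had 143 in C2C12-DF and 1009.7 in C2C12-PR, and Hmga2 had 49.4 and 275. Intermediate filament genes of other tissues were lower as well, with the neurofilament gene Nefl at 41.6 and 223, and the keratin gene Krt1-19, now Krt19, at 55.8 and 237. Fosl1, an AP-1 transcription factor that follows MAP kinase activity, had 58.5 in C2C12-DF and 301 in C2C12-PR, and the Ets factor Etv4 had 44.4 and 125. Regulators of actin and growth factor signals were the GTPase inhibitor Arhgdia (log2 ratio -1.82), the EGF receptor substrate Eps8 (-1.74), the EGF receptor ligand Areg (-1.56), the serum- and glucocorticoid-induced kinase Sgk, now Sgk1 (-1.47), and the RNA-binding protein gene Rbpms2 (-1.52). The cysteine protease inhibitor Cst6 (-1.56) and the sulfotransferase Chst1 (-1.77) also stood among them. Etv4 was -0.36 with normexp and local background, and Cst6 was -0.56 with local background.

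Metabolic enzymes made up another part of the smallest ratios, and they are best seen by list. Under amino acid shortage, cells use the factor ATF4 to raise enzymes and transporters that supply serine, glycine, asparagine and other amino acids, and growth signals through mTORC1 use the same route in growing cells. Of 34 genes of this response on the array, 29 were compared, and 13 were 2-fold lower and 1 was 2-fold higher in C2C12-DF, with a median log2 ratio of -0.71. Of the others, 3 were detected only in C2C12-PR, 1 only in C2C12-DF, and 1 on neither. Over all genes compared the background of 2-fold lower genes was 4.93%, against 44.8% in this list. The enzyme genes of serine and folate metabolism were among the lowest. Shmt2, which makes glycine and folate-bound carbon in mitochondria, had 172 in C2C12-DF and 723 in C2C12-PR. Mthfd2, the next mitochondrial folate enzyme, had 98.3 and 248, and Mthfd1l, which releases formate, had 16.1 and 34.9. The serine synthesis enzymes Psat1 and Psph were lower too, Psat1 at 657 and 1472, and Psph at 83.6 and 211.

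Asparagine synthetase, Asns, had 253 in C2C12-DF and 782 in C2C12-PR. The proline synthesis enzyme Aldh18a1 had 44.8 and 95.1, whereas Pycr1, which completes that synthesis, had 42.5 and 25.8. Slc7a5, the exchanger that brings in leucine and other large amino acids, had 80.4 in C2C12-DF and 268 in C2C12-PR, and its partner subunit Slc3a2 had 117 and 129. The glutamine transporter Slc1a5 had 23.8 and 75.7. Bcat1, which moves the amino group of leucine, is outside the list and had the fourth smallest ratio of the bright genes, at 45.7 in C2C12-DF and 269 in C2C12-PR. Most of these enzymes and transporters were thus 2-fold lower, whereas the transcription factors in the list were within 2-fold. Atf4 itself had 903 in C2C12-DF and 1053 in C2C12-PR, Ddit3, its stress partner CHOP, had 205 and 179, and the log2 ratios of Cebpb, Atf5, Cebpg and the cofactor Nupr1 were -0.33, -0.71, 0.29 and 0.40. Atf3, a factor of stress responses outside the list, was lower (-1.31). The pseudokinase Trib3, a feedback inhibitor, was lower at 12.4 and 27.9. Fgf21, a secreted metabolic hormone that ATF4 can raise, was the member that ran the other way, at 34.3 in C2C12-DF and 4.79 in C2C12-PR. This list's median stayed below 0 under all 12 other settings tried, between -0.88 and -0.50. In C2C12-W4-08, which is set against the same C2C12-PR array, the signals were 828 for Shmt2, 669 for Psph, 928 for Mthfd2 and 1313 for Asns, none below C2C12-PR. The C2C12-W4-08 array had a blank mean of 4.38 scanner units, against 20.4 for C2C12-PR. It detected 92.8% of probes, against 71.8%. Effects of the array and of the line cannot be told apart.

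The element through which ATF4 acts with C/EBP proteins has the letters TGATGNAA, and promoters of this list were searched for it because its members moved together. In the RefSeq promoters of GRCm38.p6 around each gene's start, the letters were present on either strand in 3.97% of 32851 promoters and for 4.51% of genes. They were present for 10 of 29 list genes with a promoter in the table, and for 2 of 10 of those that were 2-fold lower. The members were picked as genes of this response, so a share above that of all genes can come from that choice. Slc7a5 and Slc1a5 were among the list genes that had no promoter in the table and were not searched. A match is a description of the sequence only, and these letters can include the C/EBP core letters GCAA. The promoters of Asns and Trib3, both 2-fold lower, of Chac1, a glutathione-degrading enzyme at 70.4 in C2C12-DF and 135 in C2C12-PR, and of Fgf21, which was higher, are shown in the direction of the gene with the matching letters in capitals. Asns lies at chr6:7693160-7693459 on the minus strand, Trib3 at chr2:152344011-152344310 on the minus strand, Chac1 at chr2:119350992-119351291 on the plus strand, and Fgf21 at chr7:45615441-45615740 on the minus strand.
Asns: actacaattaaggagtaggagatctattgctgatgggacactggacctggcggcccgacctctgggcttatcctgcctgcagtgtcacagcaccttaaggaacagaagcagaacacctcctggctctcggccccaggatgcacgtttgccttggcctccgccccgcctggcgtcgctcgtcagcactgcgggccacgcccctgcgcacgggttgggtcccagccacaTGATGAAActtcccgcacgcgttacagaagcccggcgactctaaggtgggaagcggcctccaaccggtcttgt
Trib3: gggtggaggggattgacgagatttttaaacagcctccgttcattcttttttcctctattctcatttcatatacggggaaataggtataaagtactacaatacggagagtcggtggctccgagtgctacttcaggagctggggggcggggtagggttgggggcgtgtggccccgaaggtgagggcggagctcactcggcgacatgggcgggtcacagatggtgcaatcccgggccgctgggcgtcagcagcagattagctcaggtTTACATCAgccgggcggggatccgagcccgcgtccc
Chac1: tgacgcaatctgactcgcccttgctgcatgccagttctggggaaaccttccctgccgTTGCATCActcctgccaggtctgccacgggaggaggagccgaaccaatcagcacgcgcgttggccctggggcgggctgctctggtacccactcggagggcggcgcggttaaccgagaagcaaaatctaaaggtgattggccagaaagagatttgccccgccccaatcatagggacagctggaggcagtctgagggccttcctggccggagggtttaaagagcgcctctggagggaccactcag
Fgf21: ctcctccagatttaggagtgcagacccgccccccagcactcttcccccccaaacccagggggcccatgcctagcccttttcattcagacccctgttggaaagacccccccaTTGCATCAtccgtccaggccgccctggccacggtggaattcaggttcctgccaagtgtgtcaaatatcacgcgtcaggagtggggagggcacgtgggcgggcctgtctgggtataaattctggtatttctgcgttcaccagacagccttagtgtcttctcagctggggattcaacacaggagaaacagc
The match reads along the gene in Asns and on the opposite strand in the other three.

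Genes of redox control showed a split within their list. Of 35 compared genes of the glutathione, peroxiredoxin and thioredoxin systems, 4 were 2-fold lower (11.4%) and 2 were 2-fold higher (5.71%). The list's median of -0.14 turned to 0.03 in the deposited table with its own scaling. The lower members are among the genes known to be induced by NRF2, the factor that answers oxidants. Its activity was not tested. Srxn1, sulfiredoxin, which repairs oxidized peroxiredoxins, had 50.3 in C2C12-DF and 197 in C2C12-PR. The quinone reductase Nqo1 had 18.8 and 48.5. Both subunits of the enzyme that starts glutathione synthesis were lower, Gclm at 70.4 and 159.9, and Gclc at 49.4 and 108. Glutathione reductase, Gsr (-0.95), and thioredoxin reductase, Txnrd1 (-0.88), lay below the median probe without passing 2-fold. The peroxiredoxins themselves did not share this, with Prdx1 at 2826 in C2C12-DF and 2694 in C2C12-PR, and Prdx2 at 1499 and 1110.4. The members on the higher side were Txnip, the thioredoxin inhibitor that also restrains glucose uptake, at 257 and 96.0, and the microsomal glutathione transferase Mgst1 at 113 and 55.5. The mRNA of NRF2, Nfe2l2, had 249 in C2C12-DF and 189.6 in C2C12-PR.

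The core of the antioxidant response element, to which NRF2 binds, has the letters TGACNNNGC, which can also hold the AP-1 letters TGACTCA. They were present on either strand in 12.4% of all promoters, for 14.0% of all genes, and for 9 of 34 genes of the redox list with a promoter in the table. The list was picked as genes of redox control, so a share above that of all genes can come from that choice. Of the lower members, Gclc had no promoter in the table and was not searched, and the promoter of Nqo1 lacked the letters. Srxn1 and Gclm, the lower members that hold them, are shown, with Srxn1 at chr2:152105274-152105573 and Gclm at chr3:122245307-122245606, both on the plus strand and with the match, on the opposite strand, in capitals.
Srxn1: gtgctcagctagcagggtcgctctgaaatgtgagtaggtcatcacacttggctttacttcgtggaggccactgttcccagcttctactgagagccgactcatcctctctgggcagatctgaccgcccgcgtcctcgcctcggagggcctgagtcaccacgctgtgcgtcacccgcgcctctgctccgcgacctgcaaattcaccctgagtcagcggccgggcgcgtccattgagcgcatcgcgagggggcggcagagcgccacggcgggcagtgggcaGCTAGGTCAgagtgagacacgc
Gclm: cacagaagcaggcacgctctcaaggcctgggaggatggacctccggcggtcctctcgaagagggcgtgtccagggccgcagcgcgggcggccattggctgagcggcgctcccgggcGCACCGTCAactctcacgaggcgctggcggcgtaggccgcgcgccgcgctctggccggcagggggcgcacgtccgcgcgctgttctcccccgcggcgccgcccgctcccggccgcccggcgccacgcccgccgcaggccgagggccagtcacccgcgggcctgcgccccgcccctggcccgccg
Prdx1, whose signals were nearly equal on the arrays, held the letters too.

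Some genes of glucose use were lower as well. The oxidative branch of the pentose phosphate pathway supplies NADPH to the redox enzymes, and its entry enzyme G6pdx had 119.7 in C2C12-DF and 268 in C2C12-PR. Pgd, which makes the second NADPH, had 247 and 485, just within 2-fold. Transketolase, Tkt, which links the pathway back to glycolysis, had 109 and 221. The basal glucose transporter Slc2a1 had 152 in C2C12-DF and 308 in C2C12-PR, and hexokinase 1, Hk1, had 75.4 and 155. Over the glycolysis and glucose supply list, 5 of 39 compared genes were 2-fold lower (12.8%) and 3 were 2-fold higher (7.69%). The higher ones were the muscle isoforms Pgam2 (log2 ratio 3.18), Pygm (2.16) and Pfkm (1.18), against -1.17 for Pgam1, the isoform of most tissues. Most other glycolytic genes of high signal lay within 2-fold, among them Ldha (4742 in C2C12-DF, 5736 in C2C12-PR) and Eno1 (4616 and 6661). The plot of metabolic genes sets the amino acid and redox members side by side on all 3 arrays.

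**Figure D3:**
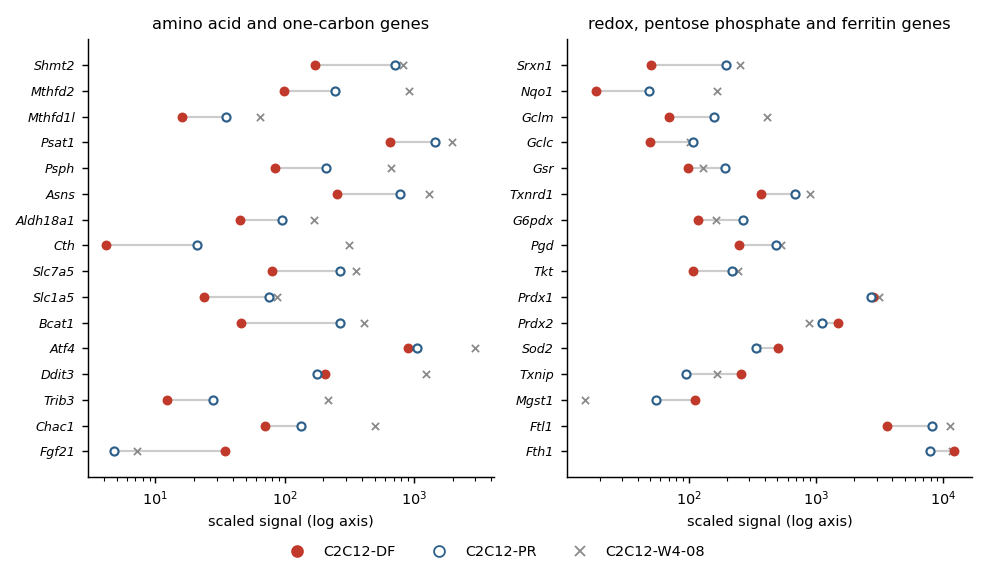
Signal in C2C12-DF (filled), C2C12-PR (open) and C2C12-W4-08 (cross) on a log axis for genes of amino acid and folate metabolism (left) and of redox control, the pentose phosphate pathway and ferritin (right). Shmt2 lies at 172 in C2C12-DF and 723 in C2C12-PR, Fgf21 at 34.3 and 4.79, and Srxn1 at 50.3 and 197.

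Genes that make ribosomes and proteins lay mostly below the median probe, except for the ribosomal proteins. Of 43 compared genes of nucleolar ribosome production and Myc targets, 40 lay below the median probe and 5 were 2-fold lower, with none 2-fold higher and a median of -0.51. Myc, the transcription factor that drives this program, had 41.6 in C2C12-DF and 100.1 in C2C12-PR. Rrn3, which recruits RNA polymerase I, had 26.6 and 63.8, and nucleolin, Ncl, had 574 and 1160.3. Nol5a, now Nop56, a core protein of the particles that modify ribosomal RNA, had 323 in C2C12-DF and 673 in C2C12-PR. Nucleophosmin, Npm1, the brightest member, had 2105 and 3003. The 26 aminoacyl-tRNA synthetase genes had a median of -0.35 with 1 gene 2-fold lower, and the 41 translation initiation and elongation factors had a median of -0.28. In contrast the 62 cytosolic ribosomal protein genes had a median of 0.23, close to the 0.21 of all genes with a mean signal of at least 1000, and it turned to -0.08 with normexp and local background. Ribosomal protein probes can pick up near-identical copies of these genes. The 74 mitochondrial ribosomal protein genes had a median of 0.05, and none passed 2-fold.

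Among the translation factors a pair of near relatives lay on opposite sides of the median probe. Eif4a1, the main helicase of translation initiation, had 2178 in C2C12-DF and 3920.1 in C2C12-PR, whereas Eif4a2 had 2583 and 1170.2. Eef1a1 and the other elongation factor of high signal, Eef2, lay within 2-fold at 0.01 and 0.28. RNA processing and transport genes lay below the median probe too. Of 59 splicing and RNA-binding genes, 46 lay below the median probe, with a median of -0.30. Past 2-fold, 4 were lower (6.78%, near the 4.93% over all genes) and none were higher. Among them were U2af2 (-1.72), which finds the end of introns, Sfrs1, now Srsf1 (-1.16), a splicing factor of the SR family, and Mbnl3 (-1.12), a muscleblind protein. Of 49 nuclear transport and envelope genes, 6 were 2-fold lower, 43 lay below the median probe, and the median was -0.49. Xpo1, the main exporter of proteins, had 171 in C2C12-DF and 403 in C2C12-PR, and the pore proteins Nup160 (-1.23) and Nup62 (-1.15) and the lamin B receptor Lbr (-1.07) also passed 2-fold. DNA repair genes had 11 of 61 members 2-fold lower and a median of -0.38, and several of them also belong to the cell cycle list.

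Chromatin genes went both ways. Besides Hmga1 and Hmga2, Hmgb3 had 261 in C2C12-DF and 629.8 in C2C12-PR, and the maintenance methylation factor Uhrf1, which is also in the cell cycle list, had 234 and 556. Of 55 compared genes 7 were 2-fold lower (12.7%, against 4.93% over all genes) and 5 were 2-fold higher (9.09%, against 5%). The higher ones were Hdac11 (2.34), Smyd1 (2.26), a muscle methyltransferase, Cbx5 (1.32), the deacetylase Sirt3 (1.16) and Ezh1 (1.02). With normexp and local background 1 member, Smyd1, was 2-fold higher and 6 were lower. Hdac11 came to 0.55 and Cbx5 to 0.51 there, and Sirt3 and Ezh1 were within 2-fold too. The polycomb methyltransferases formed another such pair, with Ezh1 at 58.1 in C2C12-DF and 28.7 in C2C12-PR, and Ezh2, the form of dividing cells, at 99.2 and 181.

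**Figure D4:**
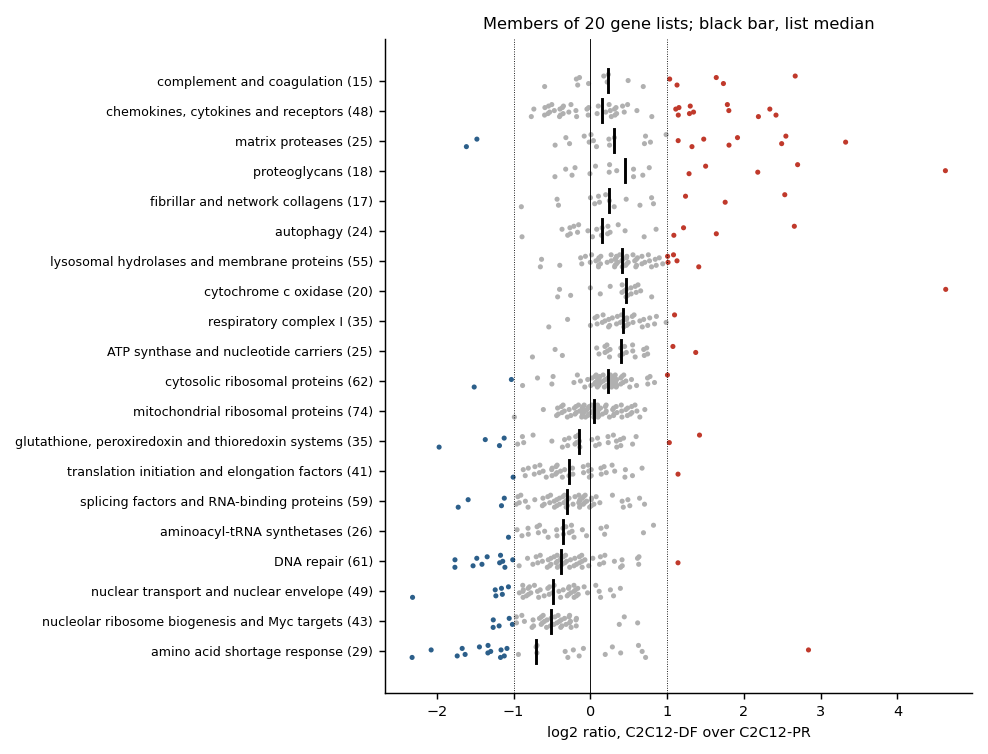
Log2 ratio of C2C12-DF over C2C12-PR of each compared member of 20 gene lists, with the number compared in brackets, the list median as a black bar, members at least 2-fold higher in red and those at least 2-fold lower in blue. The list medians run from -0.71 for the amino acid shortage response to 0.47 for cytochrome c oxidase.

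Lysosome, autophagy and respiratory chain genes were on the higher side. Lysosomes break down what autophagy and endocytosis deliver to them, and both routes are active in cells short of serum. Of 55 compared lysosomal genes, 48 lay above the median probe, 5 (9.09%, against 5% over all genes) were 2-fold higher and none 2-fold lower. Their median of 0.42 was above 0 under all 12 other settings too. The members past 2-fold were Laptm4a, the hexosaminidase subunit Hexa (358 in C2C12-DF, 169 in C2C12-PR), its cofactor Gm2a (36.1 and 18.0), the cathepsin Ctso (1.13) and the iduronidase Idua (1.01). The bright protease cathepsin D, Ctsd, had 2015 and 1193, and the membrane protein Lamp2 had 327 and 182. Subunits of the proton pump leaned the same way, with Atp6v1f at 0.94 and Atp6v1e1 at 0.90. Among 24 autophagy genes, 4 were 2-fold higher and none were lower, against 1 higher and 1 lower with normexp and local background. They were Map1lc3a, whose protein coats the forming autophagosome, its relative Map1lc3b (309 in C2C12-DF, 145 in C2C12-PR), Pink1, a kinase that marks damaged mitochondria (32.9 and 10.6), and Wipi1 (29.3 and 12.6). Gabarap, of the same family as Map1lc3a, had 1029 and 568.

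Most respiratory chain genes lay above the median probe by small steps. The medians were 0.43 over 35 genes of complex I, 0.32 over 14 genes of complexes II and III and cytochrome c, 0.47 over 20 of cytochrome c oxidase, and 0.40 over 25 of ATP synthase and the nucleotide carriers. In complex I 33 of 35 genes lay above the median probe and 1 passed 2-fold. In the cytochrome c oxidase list 1 gene was 2-fold higher, with a large log2 ratio of 4.63. In the list of ATP synthase and carriers 2 were 2-fold higher, the larger ratio being 1.37. Ndufs3, a core subunit of complex I, had 1041 in C2C12-DF and 583 in C2C12-PR, Cox6c had 3228 and 1855, and the ATP synthase ring subunit Atp5g3 had 5979 and 3564. Many of these genes are bright, and bright genes as a whole had a median of 0.21. These 4 medians stayed above 0 under all 12 other settings, the lowest being 0.26, 0.13, 0.15 and 0.06. The tricarboxylic acid cycle and mitochondrial import genes did not share this, with medians of 0.02 and -0.01 whose sign changed with the setting. Within the cycle list Pck2, a mitochondrial enzyme that is also a target of ATF4, had 69.5 in C2C12-DF and 154 in C2C12-PR. Proteasome genes had a median of -0.04, and the members past 2-fold were the immunoproteasome subunits Psmb10 (127 in C2C12-DF, 30.8 in C2C12-PR) and Psmb8 (11.9 and 5.61), which turned to -0.47 with local background.

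Matrix genes differed by kind. Fibrillar and network collagens had 3 of 17 compared chains 2-fold higher, none 2-fold lower, and a median of 0.25. Type VI collagen, which surrounds muscle fibers, stood out, with Col6a1 at 221 in C2C12-DF and 38.2 in C2C12-PR, and Col6a2 at 62.2 and 18.4. The fibrillar chain Col1a2 had 1549.7 and 989.9, and the basement membrane chain Col4a1 had 23.8 and 44.4. Among enzymes that act on collagen, the cross-linking Loxl1 had 399 in C2C12-DF and 180.1 in C2C12-PR, whereas Pcolce2, an enhancer of procollagen cleavage, had 226 and 615. Proteoglycans had 5 of 18 members 2-fold higher and none lower, with a median of 0.45. Besides decorin they included the cell surface proteoglycan syndecan 2, Sdc2, at 481 in C2C12-DF and 169.8 in C2C12-PR.

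Glycoproteins of the matrix went both ways. Of 24 compared, 5 were 2-fold higher and 3 were 2-fold lower. Fibrillin 1, Fbn1, which builds microfibrils, had 528 in C2C12-DF and 153 in C2C12-PR, and Mfap5, a protein of the same fibrils, had 38.4 and 6.85. Fibulin 5, Fbln5, needed for elastic fibers, had 86.4 and 42.3. With normexp and local background Mfap5 came to 0.78 and Fbln5 to 0.25, both within 2-fold. On the lower side were tenascin C, Tnc, an anti-adhesive protein of growing tissue, at 112 in C2C12-DF and 277 in C2C12-PR, the TGF-beta binding protein Ltbp1 at 98.3 and 232, and Spp1. Fibronectin, Fn1 (8378 and 5898), and Sparc (5409 and 3737) were bright and within 2-fold.

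Proteases that cut the matrix were among the lists with the largest share of higher members. Of 25 compared, 8 (32.0%, against 5% over all genes) were 2-fold higher and 2 were 2-fold lower, Adam8 and Mmp10 at signals under 20, with a median of 0.31. With normexp and local background 3 were higher. The gelatinase Mmp2 had 337 in C2C12-DF and 96.4 in C2C12-PR. The aggrecanases Adamts5 and Adamts4 had 127 and 12.6, and 122 and 32.4, and Adamts1 of that family had 114 and 45.6. The sheddase Adam19 had 201 and 72.0. Dimmer genes were the stromelysin Mmp3 (2.49), the urokinase Plau (2.55) and the fibroblast protease Fap (1.14). Plaur, the receptor of urokinase, ran the other way, at 83.6 in C2C12-DF and 169.8 in C2C12-PR. Of the inhibitors, Timp2, which binds Mmp2, had 414 in C2C12-DF and 212 in C2C12-PR.

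**Figure D5:**
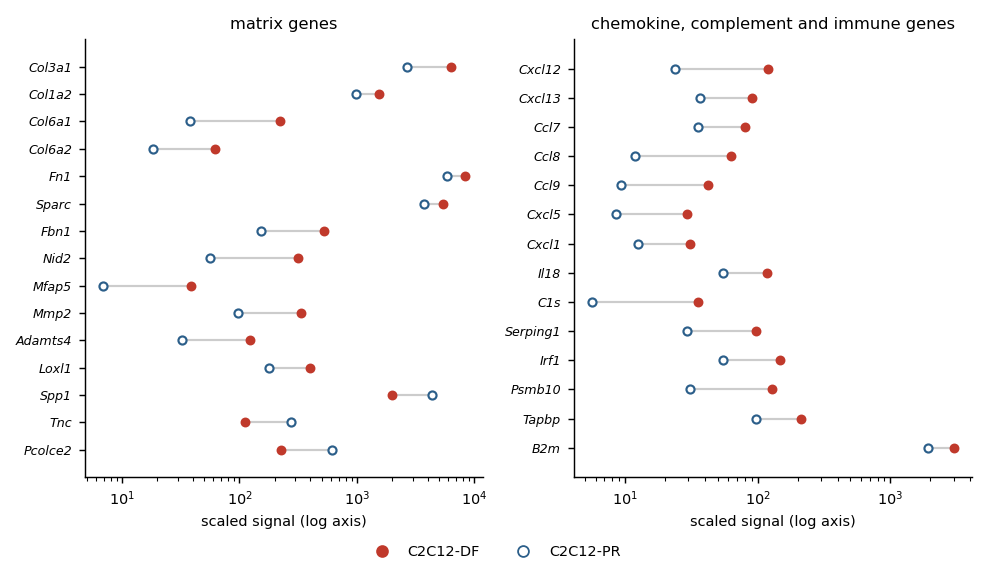
Signal in C2C12-DF (filled) and C2C12-PR (open) on a log axis for matrix genes (left) and for chemokine, complement and immune genes (right). Fbn1 lies at 528 in C2C12-DF and 153 in C2C12-PR, Tnc at 112 and 277, and Cxcl12 at 120.2 and 23.8.

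Chemokines and related genes gave another list in which members past 2-fold were all on the higher side. Of 67 on the array 48 were compared and 14 were detected on neither array, 11 (22.9%) of those compared were 2-fold higher and none were lower, and the median was 0.15, which turned to -0.03 with the spot mean and -0.19 with no detection rule. With normexp and local background, 1 of these was 2-fold higher, Ccl8, and 1 member was lower. Cxcl12, which attracts muscle progenitors through the receptor Cxcr4, had 120.2 in C2C12-DF and 23.8 in C2C12-PR. Its receptor Cxcr4 had 51.2 and 67.1. Ccl8 (63.1 and 11.8), Ccl7 (79.5 and 35.7) and Ccl9 (42.5 and 9.32), which attract monocytes, were higher in C2C12-DF, and their relative Ccl2 was at 192 in C2C12-DF and 143 in C2C12-PR. The B cell attractant Cxcl13 had 90.5 and 37.0, and the neutrophil attractants Cxcl5 and Cxcl1 had 29.3 and 8.50, and 31.1 and 12.6. The cytokine Il18 had 117 and 54.3, and the oncostatin receptor Osmr had 48.9 and 22.1. The cytokines Il6 and Tnf were detected on neither array.

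Complement and coagulation genes had 5 of 15 compared members 2-fold higher and none lower, and a median of 0.23 that turned to -0.15 with no detection rule. A further 3 were detected only in C2C12-PR, among them the complement receptor C3ar1 at 9.74, so that C2C12-DF was at least 4.14-fold lower, and 1 was detected only in C2C12-DF. With normexp and local background none of the complement, interferon and antigen presentation genes passed 2-fold. The protease C1s, which starts the classical pathway, had 35.7 in C2C12-DF and 5.61 in C2C12-PR. Its inhibitor Serping1 had 96.9 and 29.1. The protease and its inhibitor were thus higher side by side. In the interferon list 4 of 34 genes were 2-fold higher (11.8%, against 5% over all genes) and none were lower. The median of that list was 0.23, and the transcription factor Irf1 had 148 in C2C12-DF and 55.1 in C2C12-PR. In the antigen presentation list 3 of 20 were 2-fold higher (15%), among them Tapbp, which loads peptides on class I molecules, at 211 and 97.2. The light chain of class I molecules, B2m, had 3029 and 1916. Of 10 leukocyte markers 3 were compared, none passed 2-fold, and their summed signal was 66.2 in C2C12-DF and 67.8 in C2C12-PR, with Emr1 and Itgam detected on neither array and Ptprc only in C2C12-PR, at 2.72. Another 3, Cd3e, Cd79a and Tyrobp, were detected only in C2C12-DF, at 2.35, 3.26 and 3.72.

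In the list of FGF, PDGF, VEGF and EGF pathways 6 of 29 compared genes were 2-fold higher and 5 were lower, against 0 and 1 with normexp and local background. The EGF receptor ligands Areg, Hbegf and Ereg were lower, with Areg at 40.7 in C2C12-DF and 119.9 in C2C12-PR, Hbegf at 31.1 and 64.2, and Ereg at 8.74 and 27.5. The receptor Egfr was higher, with a log2 ratio of 1.52. The PDGF receptors were higher as well, Pdgfrb at 101 and 46.9, and Pdgfra at 14.7 and 4.79. The ligand Fgf21, which is also in this list, was higher. Of these genes Areg stayed past 2-fold with normexp and local background, whereas Egfr (0.39), Pdgfrb (0.31), Pdgfra (0.41) and Ereg (-0.19) came within it, and Hbegf turned to 0.019 with local background. Genes that follow MAP kinase activity split, with 9 of 39 compared immediate early and feedback genes 2-fold lower and 3 higher. Besides Fosl1 and Etv4, the lower ones included the phosphatase Dusp4 (38.9 in C2C12-DF, 89.4 in C2C12-PR), the Ras inhibitor Spred1 (17.0 and 34.5) and Atf3 (28.4 and 70.4). The higher ones were Zfp36l1, the growth factor signal inhibitor Spry1 (13.3 in C2C12-DF, 4.37 in C2C12-PR) and the AP-1 factor Fos (14.7 and 7.26). Egr1, the classic serum response gene, had 215 and 110.4. With normexp and local background 4 were 2-fold lower and 1 higher.

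The IGF ligands, which are known to promote muscle differentiation, were higher, and their action in these cells was not tested. Igf2 had 45.7 in C2C12-DF and 6.44 in C2C12-PR, and Igf1 had 19.7 and 3.14, the last close to the dimmest detected probe there (2.72). Of 14 compared genes of the IGF list 3 were 2-fold higher (21.4%, against 5% over all genes) and 1 was lower. With normexp and local background Igf2 came to 0.77 and Igf1 to 0.57, and no member of the list was 2-fold higher. The binding protein Igfbp2 had 1251 and 2029.9, and the receptor Igf1r had 58.1 and 36.6. In the TGF-beta list 2 of 21 genes were 2-fold higher (9.52%, against 5% over all genes) and none were lower. They were the receptor Tgfbr2 at 240.3 in C2C12-DF and 67.9 in C2C12-PR and the ligand Tgfb3 at 129 and 46.0. In the p53 and apoptosis list 6 of 42 were 2-fold higher (14.3%) and 3 were lower (7.14%). The gene of p53 itself, Trp53, was lower, at 101 in C2C12-DF and 261 in C2C12-PR. Its target Cdkn1a, which halts the cell cycle, was higher, at 918 and 295, and so were Gadd45b (118 and 42.3), Sesn1 (86.4 and 40.3) and Casp12 (156 and 42.7).

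Genes of focal adhesions and non-muscle actin had 5 of 49 2-fold lower (10.2%) and 2 higher (4.08%), with a median of -0.26. The actin cross-linker Actn1, the non-muscle alpha-actinin, had 66.3 in C2C12-DF and 155 in C2C12-PR, and Lasp1 had 427 and 855. Profilin, Pfn1, had 1866 and 3323. The higher members were Tagln, an actin-binding protein of smooth muscle and early myotubes, at 1022 in C2C12-DF and 293 in C2C12-PR, and Cnn3. Among tubulins, Tubb5 had 3900.0 in C2C12-DF and 5894 in C2C12-PR, Tubb2c had 2230.2 and 4241, and Tubb2b had 2201 and 1328, all within 2-fold, whereas Tubb6 passed it. Tubb2a had 2549.9 and 1669, and its log2 ratio of 0.61 turned to -0.38 under another setting. The tau gene Mapt, which binds microtubules, had a log2 ratio of 2.14. Tubulin genes are similar in sequence, so that their probes may share signal. Intermediate filament genes had 4 of 12 members 2-fold lower and none higher by their brightest probes, and vimentin stayed near the median probe. The member with the highest ratio had 0.84 by its brighter probe and 2.22 by a dimmer one, so that its probes disagree.

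Transport, lipid and iron genes held single members of large change. Slc29a1, a nucleoside transporter, had 931 in C2C12-DF and 305 in C2C12-PR. The phosphate transporter Slc20a1 was lower, at 136 and 323. The water channel Aqp1 had 172 in C2C12-DF and 452 in C2C12-PR and the gap junction gene Gja1 had 396 and 829. In lipid metabolism the cholesterol synthesis genes Tm7sf2 (141 in C2C12-DF, 53.9 in C2C12-PR) and Mvd (78.6 and 35.7) were higher, and the fatty acid elongase Elovl6 (43.5 and 101) and desaturase Fads2 (66.3 and 139) were lower. The fatty acid binding protein Fabp3 had 104 in C2C12-DF and 38.2 in C2C12-PR. The ferritin chains, which store iron together in 1 shell, ran apart, as Ftl1 was at -1.18 and Fth1 at 0.63.

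Protein turnover, folding and clock genes held a few members past 2-fold each. Of 29 genes of ubiquitin ligases and Foxo factors 3 were 2-fold higher (10.3%) and 2 were lower (6.90%). Fbxo32, the muscle ligase atrogin-1, had 34.8 in C2C12-DF and 8.91 in C2C12-PR, and Trim54, a ligase relative that binds microtubules in muscle, had 35.2 and 10.1. The conjugating enzymes Ube2m and Ube2n, which serve most cells, were lower, at -1.06 and -1.06. Among chaperones of the cytosol, the small heat shock genes Hspb2 (69.9 in C2C12-DF, 21.3 in C2C12-PR) and Cryab (281 and 136), both abundant in muscle, and the cochaperone Bag1 (805 and 391) were higher. In the endoplasmic reticulum the calcium-binding chaperone Calr had 299 in C2C12-DF and 646 in C2C12-PR, and Ero1l, which drives disulfide formation, had 56.2 and 138, whereas the nucleotide exchange factor Sil1 had 152 and 70.8. Of 18 clock genes the nuclear receptors Nr1d1 (8.29 and 27.9) and Rorb (25.2 and 58.8) were 2-fold lower and none were higher. In the Wnt list 2 of 33 compared genes were 2-fold higher (6.06%, near the 5% over all genes). The receptor Fzd2 was the brightest of these, at 105 in C2C12-DF and 38.2 in C2C12-PR. A further 2 members were lower (6.06%, near the 4.93% over all genes), at signals under 10.

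Genes detected on a single array give only bounds, relative to the dimmest detected probe of the array that lacks them, which had 2.35 in C2C12-DF and 2.72 in C2C12-PR. There were 1536 probes detected only in C2C12-DF and 941 only in C2C12-PR. Outside the muscle list the brightest in C2C12-DF were Stk23, now Srpk3, a kinase of muscle, with a signal of 92.3 that was at least 33.9-fold higher, Hsd11b1, which makes active glucocorticoid, with 64.5 and at least 23.7-fold, and Ctrb1, the digestive protease chymotrypsinogen, with 59.0 and at least 21.7-fold. Chosen after their values were seen were the activin inhibitor follistatin, Fst, at 38.9 and at least 14.3-fold, the CCN protein Wisp2 at 29.8 and at least 10.9-fold, the proteoglycan Prelp at 24.3 and at least 8.91-fold, and the lipid carrier Apoe at 22.9 and at least 8.41-fold. None of the genes detected only in C2C12-PR reached a signal of 50.

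Markers of other cell types were checked for the labelled cell type. No endothelial marker was detected on both arrays. Of 10 neuron and Schwann cell markers 8 were compared and 1 was 2-fold lower, with a summed signal of 279 in C2C12-DF and 364 in C2C12-PR. Of 8 epithelial markers 5 were compared and 1 was 2-fold lower, with sums of 166 and 164. None of either list was 2-fold higher. Of 4 adipocyte markers compared, 1 was 2-fold lower and none were higher. It was Pparg, the regulator of fat cells, at 17.9 in C2C12-DF and 48.9 in C2C12-PR, while Adipoq and Lep were detected on neither array. Of the bone and cartilage markers Sox9 had 24.3 in C2C12-DF and 49.3 in C2C12-PR, Ibsp was detected on neither, and the cartilage collagen Col2a1 and the proteoglycan Agc1 were detected only in C2C12-DF, at 6.92 and 2.35. The signal of Col2a1 was at least 2.54-fold higher there, and Col10a1 was detected only in C2C12-PR, at 2.72. Of 8 smooth muscle markers 5 were compared, of which 2 were 2-fold higher and 1 was 2-fold lower, at a log2 ratio of -1.73. Smooth muscle actin, Acta2, had 9992 in C2C12-DF and 3880.5 in C2C12-PR, whereas the smooth muscle genes Myh11 and Myocd were detected on neither array. Myoblasts are known to express Acta2 and Tagln.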

How the data were processed

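Per the labels, total RNA of each culture was amplified, labelled with a single dye, hybridised to a 3D-Gene mouse oligonucleotide array and scanned. The deposited scanner files hold the intensity of each spot, whose median was used. The authors' deposited table holds a linear signal with a median of 25 on each array and no centring on genes, and its spot summary and background step are not given in the sources used here. It was used as an alternative. Blank spots gave the value to subtract, probes above the blank mean plus 2 SD were called detected, and the median ratio of detected probes was set to 1. A single flagged spot was left out, and a probe spotted at 2 places was kept as 2 spots. Log2 ratios were computed with numpy 2.4.6 and the alternatives with limma 3.58.1, and the scripts were tested on simulated data. Symbols are those of the array design, updated where the RefSeq table of GRCm38.p6 allowed, which gave 16808 of 18355 names a current symbol.

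Named genes were the 30 largest and 30 smallest ratios of at least 100 on 1 array outside the muscle and cell cycle lists, the 20 brightest, the leading and brightest members of each list, the single-array genes of at least 50, and the cell type markers. A further 59 were chosen after their values were seen. The members and lists were chosen with earlier results of these data known. Some genes are not reported here.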

Additional observations from a re-analysis of the deposited data

How the results depend on the processing

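Of 2792 values of named genes under 12 other settings, 2607 moved by less than the largest combined SD of the positive control spots, and 183 moved by more. Counting values of any size, 13 genes changed sign under some setting. Of those past 2-fold 2 did so, Hbegf, at 0.019, and Psmb8, at -0.47, both with local background. Of 194 named genes past 2-fold, 101 came within it with normexp and local background, whose offset of 50 pulls dim ratios towards 0 by construction, and 48 with local background alone. Normexp with local background gave 194 higher and 384 lower probes (33.6% higher), and local background alone gave 1276 lower. The spot mean, with 4778 probes detected on both arrays, gave 133 higher and 232 lower (36.4%). Requiring a signal of 20 on both arrays left 304 higher and 311 lower, and a signal of 100 on 1 array left 252 and 208. The deposited table gave 369 lower probes at its own scaling (73.0% higher). A mark of 1.5-fold gave 2181 higher and 2171 lower, and of 4-fold 151 and 40 (79.1%). The cause was not tested. List medians near 0 changed sign with the setting. No paired analysis was possible because each condition has 1 array. Signals of dim genes rest on few scanner units above the blanks, so ratios of genes under 20 are the least certain.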
